A study of Mus musculus with 7 samples.

Results

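The genes described here carry the symbols *Ccdc*, *Lrrc*, *Wdr*, *Ttc*, *Iqc*, *Ankrd* or *Armc*. These symbols are mostly given to proteins for a sequence feature. The features are a coiled coil, leucine-rich repeats, WD repeats, tetratricopeptide repeats, IQ motifs, ankyrin repeats or armadillo repeats. A transcript cluster, a group of array probes read together and listed as a row, was taken as a member when its class was Coding or Complex and its first gene symbol began with a family symbol followed by a letter or digit. This gave 139 member rows with 138 distinct symbols among 4102 coding rows and 7580 rows of all classes. RNA from the seminiferous tubules of adult mice on a C57BL/6J background was hybridized to mouse transcriptome arrays, and the sample titles name testes. There were 3 wild-type mice and 4 *Ctcf*-cKO mice, each with an array of its own. The *Ctcf*-cKO mice carried *Stra8*-iCre with a floxed and a deleted allele of *Ctcf*, which encodes the chromatin insulator protein CTCF. Cre under the *Stra8* promoter acts from the spermatogonium to the start of meiosis, and per the study's methods and staining Sertoli, Leydig and spermatogonial cells kept the protein in the mutant. Mice without Cre served as wild-type and could carry floxed *Ctcf* alleles, and a wild-type group with *Stra8*-iCre alone was not analysed here.

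Repeats and coiled coils hold large protein assemblies together. In the testis many of these proteins build the axoneme, the microtubule core of the sperm flagellum, which forms in the haploid spermatid. Dynein arms drive the sliding of its microtubules, the nexin-dynein regulatory complex links neighbouring doublets, and intraflagellar transport carries cargo along the growing axoneme of most cilia. Other proteins with the same repeats work in the cytoplasm, at membranes or on chromatin of many tissues, so the symbol alone names no function.

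The values are log2 signals averaged by the authors within each genotype, and a difference is the *Ctcf*-cKO average minus the wild-type average, so that -1 stands for a signal lowered to 50%. Where a pair of averages is given, the wild-type value stands first. The deposited table was cut by the authors at a fold of 2 and an unadjusted p of 0.05, so it lists only rows that passed this cut. It has 0 columns of single arrays, so the spread between mice is unknown, no test was run, and precision is limited by how few mice were used. *Ctcf* itself has 0 rows in it. Genes outside it were not analysed here. The RNA came from a mixture of cells, and fewer cells of a type and less RNA per cell cannot be told apart. Of 24 marker genes of primary spermatocytes, round spermatids and elongating spermatids, 15 have a row (7 of 7, 5 of 6 and 3 of 11) and all 15 were lower, by -1.57 to -1.02, and the log2 of the summed signal of each list went from 12.18 to 13.13 in wild-type to 10.90 to 12.11 in *Ctcf*-cKO. Among the elongating spermatid markers *Prm1*, *Prm2*, *Tnp1* and *Tnp2* have no row. Of 6 spermatogonial markers only *Kit* has a row, and it was higher by 2.28. Of 30 somatic markers, those of Sertoli, Leydig, endothelial and peritubular myoid cells and of macrophages, 20 have a row (6 of 8, 5 of 6, 2 of 5, 3 of 5 and 4 of 6) and all 20 were higher, by 1.06 to 2.97, with summed log2 signals of 7.70 to 12.37 in wild-type and 8.83 to 14.13 in *Ctcf*-cKO. These lists moved with the results below, and their part in them was not tested.

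In *Ctcf*-cKO, 127 of the 139 member rows had a lower signal and 12 a higher signal. The lower rows made up 91.4% of the members, beside 62.1% of all 4102 coding rows. The 12 higher members are 8.63% of the members, and 37.9% of all coding rows were higher. The lower members had a median difference of -1.40, from -2.13 to -1.01, and the median over all 2549 lower coding rows was -1.29. Of the lower members, 86 of 127 (67.7%) lay below that median of -1.29. A lower average past a linear fold of 3 was found in 34 members, 24.5% of the 139, whereas 7.87% of all coding rows were that low. These shares also reflect how many rows were lower. Among lower rows alone the counts were 34 of 127 members and 323 of 2549 coding rows. Past the same fold upwards were 2 members, *Armcx3* and *Armcx6*, and 10.1% of all coding rows. The fold of 3 fell between *Ccdc39*, at -1.59, and *Ccdc158* and *Wdr64*, both at -1.58. Signals of different rows come from different probes, so levels of member rows were compared only within a row. Only the marker lists were summed over rows, where the brightest rows weigh most, and each sum was set beside that of the other genotype.

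**Figure D1:**
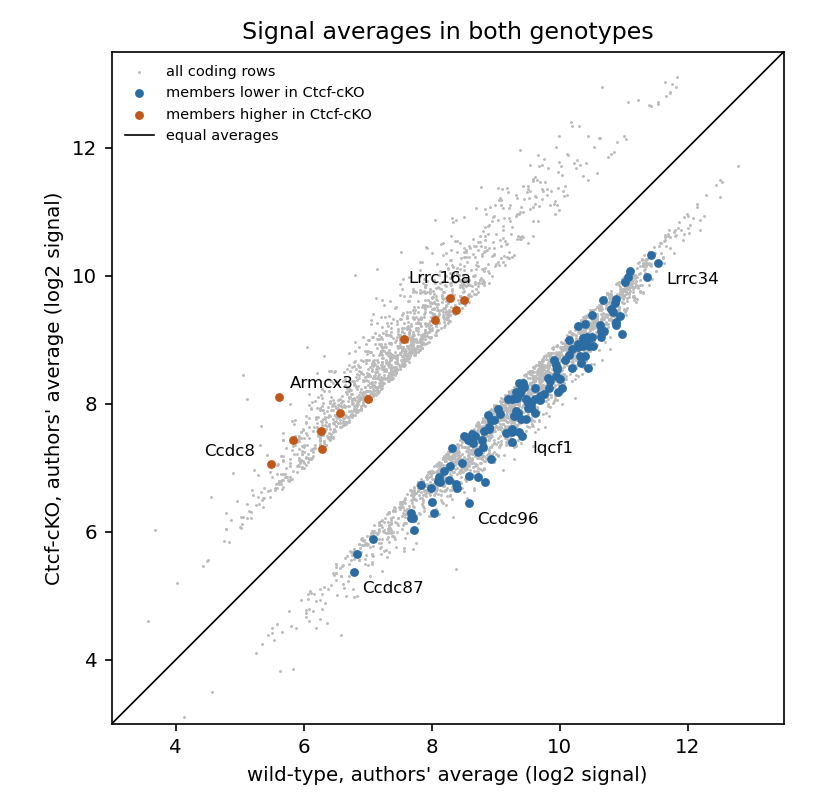
Each point is a coding row, with the log2 signal averaged by the authors for wild-type on the x axis and for *Ctcf*-cKO on the y axis; grey points are all 4102 coding rows, blue points the 127 lower and orange points the 12 higher members. The empty band along the line of equal averages is where rows under the fold of 2 would lie, and the 127 lower members form a band under the line with the 12 higher members above it.

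The RefSeq annotation of GRCm38.p6 lists 393 protein-coding genes whose current symbol belongs to the 7 families, and 131 of them (33.3%) have a coding row, beside 15.0% of all 21900 protein-coding genes. The share with a row was 76.5% for *Iqc* (13 of 17 genes), 40.9% for *Ccdc* (56 of 137), 35.7% for *Ttc* (15 of 42), 35.3% for *Armc* (6 of 17), 27.9% for *Lrrc* (19 of 68), 24.6% for *Wdr* (16 of 65) and 12.8% for *Ankrd* (6 of 47). The share was highest for *Iqc* and lowest for *Ankrd*, the latter below that of all protein-coding genes. By first symbol in the table, every family but *Armc* was mostly lower. The counts were 58 lower and 4 higher rows of *Ccdc*, 20 and 1 of *Lrrc*, 18 and 2 of *Wdr*, 12 and 2 of *Ttc*, 10 and 0 of *Iqc*, 6 and 0 of *Ankrd*, and 3 and 3 of *Armc*. The median difference of the lower rows was -1.40 for *Ccdc*, -1.41 for *Lrrc*, -1.58 for *Wdr*, -1.35 for *Ttc*, -1.39 for *Iqc*, -1.40 for *Ankrd* and -1.64 for *Armc*. Past a fold of 3 were 8 of the 20 *Wdr* rows, 14 of 62 *Ccdc* rows, 5 of 21 *Lrrc* rows, 2 of 10 *Iqc* rows, 1 of 14 *Ttc* rows, 1 of 6 *Ankrd* rows and all 3 lower *Armc* rows.

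**Figure D2:**
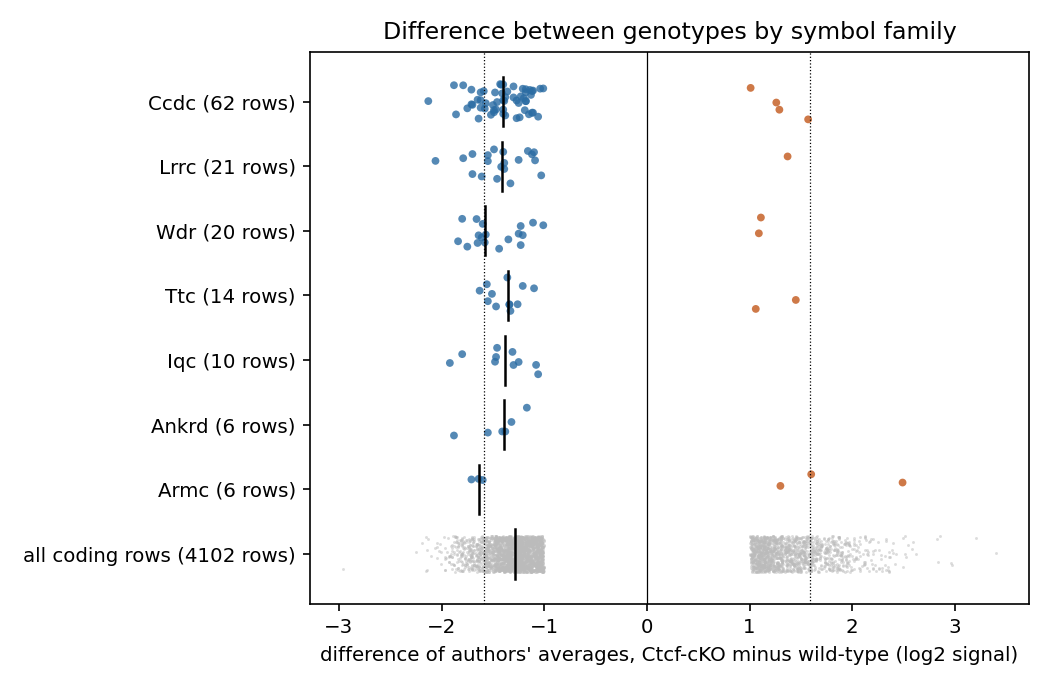
Each point is a member row, placed by family on the y axis and by the difference of the authors' averages (log2 signal, *Ctcf*-cKO minus wild-type) on the x axis, with all 4102 coding rows in grey; black bars mark the median of the lower rows and dotted lines a linear fold of 3. *Iqc* and *Ankrd* have no higher row, and the 3 higher *Armc* rows all carry *Armcx* symbols.

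The lowest differences of the families ran from -2.13 in *Ccdc* to -1.63 in *Ttc*. *Ccdc96*, which encodes a coiled-coil protein of motile cilia, averaged 8.58 in the wild-type and 6.45 in the mutant, a difference of -2.13 and the lowest of all members. *Lrrc69* averaged 8.84 and 6.78, a difference of -2.06, and *Lrrc74* averaged 9.98 and 8.19, or -1.79. *Ccdc178* averaged 10.44 and 8.56, a difference of -1.88. *Ankrd7*, whose tissue list in the table names testis alone, averaged 10.97 and 9.09 (-1.88), ahead of *Ankrd36* at 10.46 and 8.91 (-1.55) and *Ankrd53* at 10.09 and 8.68 (-1.41). *Wdr20rt*, a retrogene copy of *Wdr20*, averaged 9.25 and 7.41 (-1.84), and its probes may also read its parent gene, which was not tested. *Armc3* averaged 10.20 and 8.56 (-1.64), and *Armc12*, which is needed for the mitochondrial sheath of the sperm midpiece, averaged 10.88 and 9.28 (-1.60). *Lrrc63* averaged 10.33 and 8.63, a difference of -1.70.

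A promoter sequence from RefSeq was at hand for 111 of the 138 member genes, 141 promoters in all, each of 300 bases from 250 before to 50 after a start site. They were searched on both strands for the X-box core GTTGCC, the repeated arm of the site bound by the RFX factors that control many cilium genes. The core was present in 36 of 130 promoters of lower members (27.7%), in 405 of 1817 promoters of all lower coding rows (22.3%), in 150 of 1442 promoters of higher coding rows (10.4%) and in 4111 of all 32851 promoters (12.5%). It was also present in 3 of 11 promoters of higher members (27.3%), those of *Ccdc8*, *Ccdc160* and *Ccdc170*. The share was thus about the same in lower and higher members, with few of the latter. Of the core's 43 matches in promoters of lower members, 30 (69.8%) began within 150 bases before the start site, beside 59.5% of the matches in promoters of all lower coding rows and 53.2% of those in all promoters. In promoters of higher members 2 of 3 matches (66.7%) began there. Promoters of a gene can overlap. By gene, 34 of 102 lower members had a core (33.3%), beside 3 of 9 higher members (also 33.3%), 24.6% of the genes of all lower coding rows and 14.1% of all genes. The 34 lower members were 14 of 49 *Ccdc* genes, 8 of 15 *Lrrc* genes, 4 of 14 *Wdr* genes, 4 of 11 *Ttc* genes, 3 of 8 *Iqc* genes, 1 of 4 *Ankrd* genes and 0 of 1 *Armc* gene. The median difference was -1.47 over the 34 genes with a core, from -2.13 to -1.01, and -1.39 over the 68 without, from -1.86 to -1.01, so the ranges overlapped almost throughout.

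The promoters of *Wdr52* (now *Cfap44*), *Iqcg* and *Lrrc23*, 3 axoneme genes with 2 cores each, and of the sperm gene *Iqcf1* are shown as examples, picked from the lower members with a core. Each is the 250 bases before a RefSeq start site in GRCm38.p6, written 5′ to 3′ along the gene, with the cores in capitals. They lie at chr16:44394549-44394798 on the plus strand for *Wdr52*, chr16:33056187-33056436 on the minus strand for *Iqcg*, chr6:124779728-124779977 on the minus strand for *Lrrc23* and chr9:106499717-106499966 on the plus strand for *Iqcf1*.
Wdr52: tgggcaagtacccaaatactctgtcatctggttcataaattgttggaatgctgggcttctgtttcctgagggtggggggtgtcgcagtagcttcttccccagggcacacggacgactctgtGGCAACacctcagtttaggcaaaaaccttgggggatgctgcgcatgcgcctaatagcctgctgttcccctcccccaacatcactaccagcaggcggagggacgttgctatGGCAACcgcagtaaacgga
Iqcg: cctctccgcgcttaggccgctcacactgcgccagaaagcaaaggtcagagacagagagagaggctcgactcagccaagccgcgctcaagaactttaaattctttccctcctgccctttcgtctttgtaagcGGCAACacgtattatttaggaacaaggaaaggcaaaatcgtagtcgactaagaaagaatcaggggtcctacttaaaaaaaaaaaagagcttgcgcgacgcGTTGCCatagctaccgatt
Lrrc23: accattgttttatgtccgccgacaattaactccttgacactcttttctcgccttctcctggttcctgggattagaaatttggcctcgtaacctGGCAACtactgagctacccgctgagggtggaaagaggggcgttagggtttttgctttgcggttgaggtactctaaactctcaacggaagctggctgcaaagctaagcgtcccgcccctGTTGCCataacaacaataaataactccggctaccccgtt
Iqcf1: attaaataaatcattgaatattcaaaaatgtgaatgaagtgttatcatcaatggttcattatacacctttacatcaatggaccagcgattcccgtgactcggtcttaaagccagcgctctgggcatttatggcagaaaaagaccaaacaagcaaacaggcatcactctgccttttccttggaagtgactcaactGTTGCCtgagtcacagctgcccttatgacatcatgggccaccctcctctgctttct
In *Wdr52* the cores began 129 and 19 bases before the start site, in *Iqcg* 119 and 19, in *Lrrc23* 157 and 39, and in *Iqcf1* 56. A match is a run of letters and does not show that a factor binds there.

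The cyclic AMP response element was searched as TGACGT, the larger part of its palindrome. The element is bound in spermatid genes by the testis activator CREM. TGACGT was found in 15 of 130 promoters of lower members (11.5%), in 3 of 11 of higher members (*Armcx6*, *Ccdc8* and *Wdr82*), in 7.1% of promoters of all lower coding rows, in 8.46% of those of higher coding rows and in 7.51% of all promoters. The 15 promoters belong to 11 of 102 genes (10.8%, beside 8.37% of all genes), and 3 of them are overlapping promoters of *Ccdc136*. The whole palindrome TGACGTCA, in which this run overlaps its own copy on the other strand, stood in 6 promoters of 5 lower genes (4.62% of the 130), in 1 of 11 promoters of higher members (that of *Wdr82*), in 2.59% and 1.87% of promoters of lower and higher coding rows and in 1.79% of all promoters. The promoters of *Iqcf3*, *Wdr63* and *Ccdc173* are shown as examples, with the palindrome in capitals and the same 250 bases before a start site. They lie on the minus strand at chr9:106561627-106561876, chr3:146108037-146108286 and chr2:69789487-69789736.
Iqcf3: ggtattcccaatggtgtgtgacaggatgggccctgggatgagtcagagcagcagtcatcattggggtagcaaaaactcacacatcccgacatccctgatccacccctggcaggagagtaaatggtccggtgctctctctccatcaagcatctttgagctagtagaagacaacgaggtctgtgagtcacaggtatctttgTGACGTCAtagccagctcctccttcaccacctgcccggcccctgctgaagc
Wdr63: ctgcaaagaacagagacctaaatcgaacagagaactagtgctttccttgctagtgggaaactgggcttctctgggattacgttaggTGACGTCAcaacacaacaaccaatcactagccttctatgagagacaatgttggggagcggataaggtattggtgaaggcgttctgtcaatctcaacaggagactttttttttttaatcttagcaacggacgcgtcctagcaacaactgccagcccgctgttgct
Ccdc173: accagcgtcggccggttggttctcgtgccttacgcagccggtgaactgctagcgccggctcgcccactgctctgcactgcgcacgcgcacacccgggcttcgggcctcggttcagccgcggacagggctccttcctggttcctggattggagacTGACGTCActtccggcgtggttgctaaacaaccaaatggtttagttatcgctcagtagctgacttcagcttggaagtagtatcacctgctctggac
The palindromes began 51, 164 and 96 bases before the start site. The core of the CTCF motif was searched as AGGGGGC or AGGTGGC. It was in 18 of 130 promoters of lower members (13.8%) and in 2 of 11 of higher members (*Ttc38* and *Wdr82*). It was also in 210 of 1817 promoters of all lower coding rows (11.6%), in 315 of 1442 of higher coding rows (21.8%) and in 16.0% of all promoters. The 18 promoters belong to 14 of 102 genes (13.7%), beside 12.7% of the genes of all lower coding rows and 17.8% of all genes.

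The genes of the axonemal ruler and the nexin-dynein regulatory complex were lower in every listed case that has a row. This list and the role lists of the next paragraphs were chosen with earlier results of these data known. Their counts are a description only, beside 62.1% of all 4102 coding rows that were lower. *Ccdc39* and *Ccdc40* form the ruler along the doublet microtubules that sets the spacing of the inner arms and spokes. *Ccdc39* averaged 10.64 and 9.05 (-1.59), and *Ccdc40* averaged 8.92 and 7.74 (-1.18). The regulatory complex was represented by *Ccdc135* (now *Drc7*) at 9.39 and 7.77 (-1.62), *Lrrc48* (now *Drc3*) at 9.55 in wild-type (-1.55), *Iqcg* at 9.28 and 7.81 (-1.47) and *Ccdc65* at 10.84 and 9.44 (-1.40). *Iqca* averaged 7.99 and 6.69 (-1.30), and *Iqcd* averaged 8.82 and 7.57 (-1.25). Of the 13 genes on this list 11 have a row, 8 members and 3 other genes, and all 11 were lower with a median of -1.40; *Ccdc164* and *Gas8* have no row.

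Dynein arms and their attachment followed the same direction. *Armc4*, *Ccdc151* and *Ttc25* dock the outer dynein arms on the doublets, and averaged 8.58 and 6.87 (-1.71), 9.16 and 7.54 (-1.62), and 10.19 and 8.85 (-1.34) in wild-type and *Ctcf*-cKO. *Ccdc103* and *Ccdc114*, also on the docking list, have no row. *Wdr78* and *Wdr63* are intermediate chains of inner arm dyneins, and averaged 9.26 and 7.61 (-1.65) and 9.84 and 8.24 (-1.60). The outer arm chains *Dnaic1* and *Dnaic2*, which are outside the families, differed by -1.39 and -1.43. *Lrrc6*, which helps to assemble dynein arms in the cytoplasm, averaged 10.28 and 8.89 (-1.39), and the 7 listed assembly factors outside the families were lower too, the whole list running from -1.47 to -1.07. Among 32 other axonemal genes outside the families, 26 have a row, 25 lower and 1 higher, with a median difference of -1.44. The higher gene was *Dnah9*, a dynein heavy chain, at 1.14.

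Many members are flagellar genes under older symbols: 18 of the 139 have another current symbol in RefSeq, and 12 of these begin with *Cfap* or *Drc*. The list of cilium and flagellum associated proteins held 19 genes, of which 18 have a row and all 18 were lower, with a median of -1.46. *Wdr52* (*Cfap44*) and *Wdr96* (*Cfap43*), which tether an inner arm dynein, averaged 9.36 and 7.56 (-1.80) and 10.40 and 8.74 (-1.66). *Ccdc146*, a gene needed for sperm flagella, averaged 8.92 and 7.13 (-1.79). *Wdr16* (*Cfap52*) and *Ccdc11* (*Cfap53*), proteins on the inside of the doublet microtubules, averaged 9.61 and 7.86 (-1.75) and 8.48 and 7.08 (-1.40), and *Ccdc19* (*Cfap45*), of the same compartment, averaged 9.31 and 8.19 (-1.12). *Ccdc173*, also found inside the doublets, averaged 9.96 and 8.55 (-1.41). *Lrrc23*, a protein of the radial spokes, averaged 9.26 and 7.56 (-1.70).

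The other genes of this list ran from -1.63 to -1.11. *Ttc29*, needed for intact sperm flagella, averaged 10.01 and 8.38 (-1.63). *Wdr65* (*Cfap57*) averaged 10.31 and 8.74 (-1.57), *Ttc18* (*Cfap70*) averaged 10.69 and 9.13 (-1.56), *Ccdc147* (*Cfap58*) averaged 9.35 and 7.86 (-1.49), and *Wdr66* averaged 9.32 and 7.88 (-1.44). *Ccdc176* (*Bbof1*), named for basal body orientation, averaged 10.43 and 9.00 (-1.43), and *Ccdc113* averaged 10.63 and 9.23 (-1.40). *Ccdc181* averaged 10.87 and 9.57 (-1.30), *Ccdc108* (*Cfap65*), another gene of flagellum assembly, averaged 10.88 and 9.64 (-1.24), and *Ccdc37* (*Cfap100*) averaged 7.84 and 6.73 (-1.11).

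**Figure D3:**
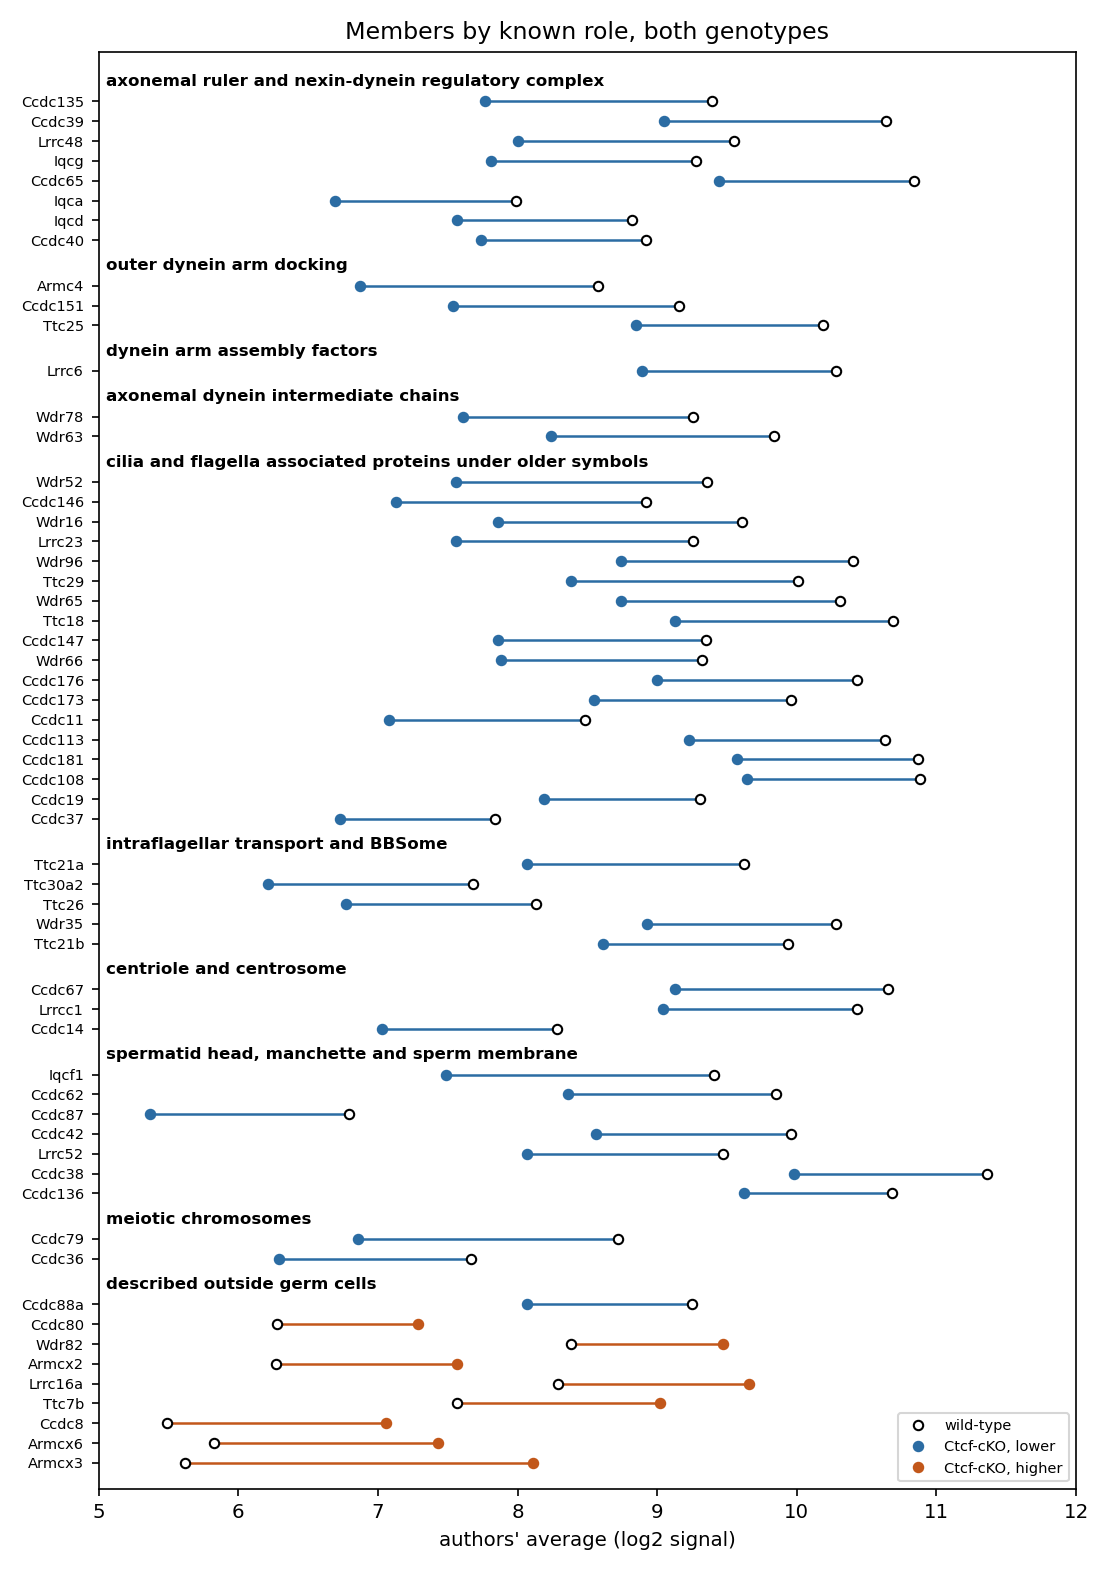
The x axis is the authors' average log2 signal; each line joins the wild-type average (open circle) and the *Ctcf*-cKO average (filled circle) of a member gene, grouped by known role. The first 9 groups hold 49 members, none of them higher, and 8 of the 9 genes described outside germ cells are higher; the groups were chosen with results known.

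Intraflagellar transport was covered less completely. Of its 30 genes, counted with the BBSome, 14 have a row and all 14 were lower, with a median difference of -1.30; 16 have no row. The 5 members among them were *Ttc21a* at 9.62 and 8.07 (-1.55), *Ttc30a2* at 7.68 and 6.21 (-1.47), *Ttc26* at 8.13 and 6.77 (-1.36), *Wdr35* at 10.28 and 8.93 (-1.35) and *Ttc21b* at 9.94 and 8.61 (-1.33). *Wdr35* and *Ttc21b* belong to the retrograde complex, and *Ttc26* and *Ttc30a2* to the anterograde complex. *Ttc30a2* has near copies, *Ttc30a1* and *Ttc30b*, whose RNA its probes may share. The centriole and centrosome list was the least complete, with 3 of 12 genes. *Ccdc67* (now *Deup1*), which builds the deuterosomes that multiply centrioles in multiciliated cells, averaged 10.65 and 9.13 (-1.52). *Lrrcc1*, a centriole protein, averaged 10.43 and 9.04 (-1.39), and *Ccdc14*, of the centriolar satellites, averaged 8.28 and 7.03 (-1.25).

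Genes of the sperm head, the manchette and the sperm membrane were lower, all 7 of 7 with a median of -1.40. *Iqcf1*, an acrosomal protein, averaged 9.41 and 7.49 (-1.92). *Ccdc62* and *Ccdc87*, which take part in the acrosome of the spermatid, averaged 9.85 and 8.36 (-1.49) and 6.79 and 5.37 (-1.42). *Ccdc42* and *Ccdc38*, proteins of the manchette that shapes the spermatid head and tail, averaged 9.96 and 8.56 (-1.40) and 11.36 and 9.98 (-1.38). *Lrrc52*, a subunit of the potassium channel of sperm, averaged 9.47 and 8.07 (-1.40), and *Ccdc136*, of acrosome formation, averaged 10.68 and 9.62 (-1.06). Of 3 genes that act on meiotic chromosomes, *Ccdc79* (now *Terb1*), which joins telomeres to the nuclear envelope, averaged 8.72 and 6.86 (-1.86). *Ccdc36* (now *Iho1*), which is needed for meiotic DNA breaks, averaged 7.67 and 6.29 (-1.38), and *Ccdc155* has no row.

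The *Iqcf* genes form a cluster on chromosome 9. The 5 protein-coding *Iqcf* genes of RefSeq all have a row and all were lower, over 128 kb from 106499967 to 106627612 in GRCm38. *Iqcf1* was the lowest at -1.92. *Iqcf4* averaged 10.04 and 8.24 (-1.80), *Iqcf6* averaged 7.70 and 6.22 (-1.48), *Iqcf5* averaged 8.10 and 6.79 (-1.31) and *Iqcf3* averaged 10.29 and 9.21 (-1.08). The row of *Iqcf5* lies within the span of the row of *Iqcf3*, on the other strand. In the window from 400 kb before to 200 kb after the start of *Iqcf1* there are 9 coding rows, and the 4 outside the cluster were higher. These were the member *Wdr82* at 8.38 and 9.47 (1.09), 329 kb before *Iqcf1*, and 3 genes named after their values were seen, *Ppm1m* (1.15), *Twf2* (1.02) and *Alas1* (1.04). The starts of *Alas1* and *Iqcf1*, rows of opposite direction, lie 267 kb apart. No coding row lies between them, but genes that missed the authors' cut have no row, so no boundary of direction can be placed. Over all coding rows, 37.9% were higher.

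**Figure D4:**
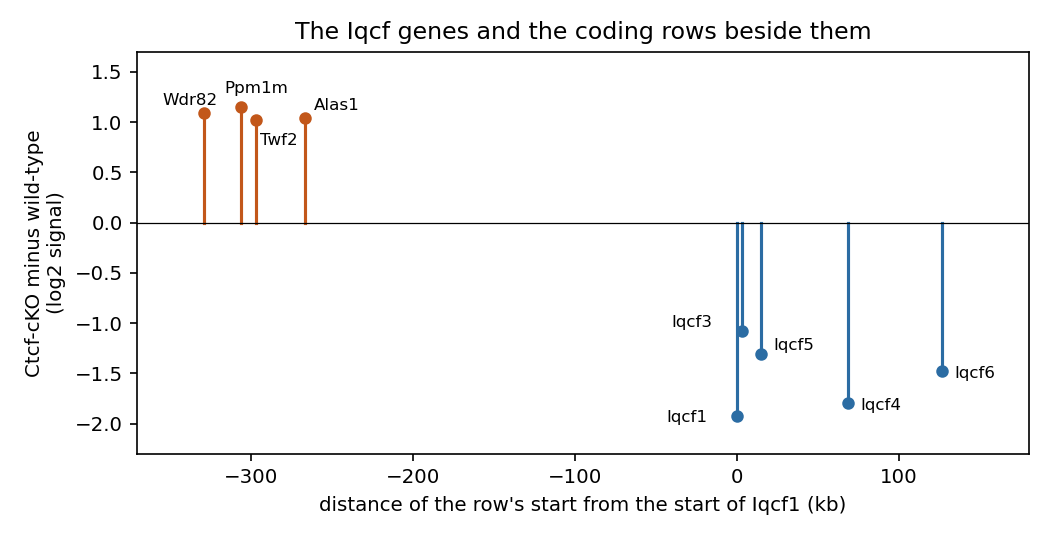
The x axis is the distance of a row's start from the start of *Iqcf1* in kb, and the y axis the difference of the authors' averages (log2 signal, *Ctcf*-cKO minus wild-type) of the 9 coding rows in the window. The 5 *Iqcf* genes point down, from -1.92 to -1.08, and the 4 rows 267 to 329 kb before them point up, from 1.02 to 1.15.

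The 12 higher members had a median difference of 1.29, beside 1.33 over all 1553 higher coding rows. The list of 25 family genes described outside germ cells was chosen with earlier results of these data known, so its count is a description only. Of these genes 9 have a row and 8 of the 9 were higher. The exception was *Ccdc88a*, an actin-binding protein, at 9.25 and 8.07 (-1.18). *Armcx3*, whose product sits on the mitochondrial outer membrane, averaged 5.62 in the wild-type and 8.11 in the mutant (2.49), the largest difference of any member in either direction. Its row is placed at 128039019 to 128042418 of chromosome 7, over the pseudogene *Gm9299*, and not at the *Armcx3* gene at 134756552 to 134761457 of the X chromosome, so it is not settled which transcript its 30 probes read. *Armcx6* averaged 5.83 and 7.43 (1.60) and *Armcx2* averaged 6.27 and 7.57 (1.30), and both rows lie at their genes on the X chromosome. Among the *Armc* rows present, *Armc3*, *Armc4* and *Armc12* were lower and the 3 *Armcx* rows higher, the unsettled *Armcx3* row among them. Of the 6 *Armcx* genes of RefSeq, 3 have no row of their own.

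The other higher members were of mixed function. *Ccdc8*, of the complex with the ubiquitin ligase subunit *Cul7*, averaged 5.49 and 7.06 (1.57). *Ttc7b*, which holds a phosphatidylinositol kinase at the plasma membrane, averaged 7.57 and 9.02 (1.45), and *Lrrc16a* (now *Carmil1*), a regulator of actin capping protein, averaged 8.29 and 9.66 (1.37). *Ccdc170* averaged 6.56 and 7.85 (1.29) and *Ccdc160* averaged 8.05 and 9.31 (1.26). *Wdr83os*, of the endoplasmic reticulum, averaged 8.51 and 9.62 (1.11). Its only listed domain is that of an uncharacterised protein family, so it is a member by symbol and not by a listed WD repeat. *Wdr82*, a subunit of a histone methyltransferase complex, gave the difference stated above. *Ttc38* averaged 7.01 and 8.07 (1.06), and *Ccdc80*, a secreted matrix protein, averaged 6.28 and 7.29 (1.01), the smallest difference among the higher members. On the X chromosome lay 3 members, *Armcx2*, *Armcx6* and *Ccdc160*, and all 3 were higher, while 178 of all 375 coding rows there (47.5%) were higher.

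A UniGene list of tissues was given for 125 lower members, and it named testis for 120 of them (96.0%) and testis alone for 27 (21.6%). Over all lower coding rows with a list these shares were 95.2% and 37.6%. Testis was also named for 9 of 12 higher members (75.0%) and for 80.5% of higher coding rows with a list. The median number of tissues was 4 for lower members and 20.5 for the 12 higher members, of which 0 were listed for testis alone; over all coding rows the medians were 2 for lower and 22 for higher rows. The ranges overlapped, with 25 tissues for the lower member *Ttc4* and 2 for the higher member *Ccdc170*. A cellular component term with cilium, axoneme or flagellum was given to 10 of 127 lower members (7.87%), to 0 of 12 higher members and to 4.55% of all lower coding rows. Most of the flagellar genes above therefore carried no such term in the table. A protein domain of the family's name was listed for 6 of 6 *Ankrd* rows, 9 of 10 *Iqc* rows, 5 of 6 *Armc* rows, 16 of 20 *Wdr* rows, 14 of 21 *Lrrc* rows and 6 of 14 *Ttc* rows. Of the 62 *Ccdc* rows 6 had any domain listed.

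The remaining members are on no role list. They are 81 rows, of which 77 were lower, from -2.13 to -1.01 with a median of -1.36, and 4 were higher, from 1.06 to 1.29. Besides those described above, *Ccdc73* (-1.75), *Ccdc144b* and *Ccdc150* (both -1.71), *Ccdc148* (-1.70), *Ccdc110* (-1.65) and *Wdr88* and *Ccdc83* (both -1.64) had the lowest differences among them. Closest to the threshold of the table were *Ccdc163* and *Wdr54*, both at -1.01, and *Lrrc27* at -1.03. *Ccdc169* has a row at its gene (8.80 and 7.33, or -1.47) and a row of 30 probes with no position (9.36 and 8.32, or -1.04), both lower.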

How the data were processed

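Affymetrix mouse transcriptome arrays were hybridized with testis RNA, 3 of wild-type and 4 of *Ctcf*-cKO mice. Per the submitters' processing notes, Expression Console 1.4.1 with RMA and Transcriptome Analysis Console 3.0 were used, with the build mm10. The deposited table has 7580 rows, filtered by the authors at a linear fold of 2 and p of 0.05, and holds the authors' bi-weight averages of the log2 signal of each genotype. It also holds the authors' fold changes, their analysis-of-variance p-values and false discovery rates, which were not used, and 0 columns of single arrays. Other deposited values are the probe count of a row and annotation, in which positions are those of GRCm38.

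Decimal commas were converted, and the *Ctcf*-cKO average minus the wild-type average was taken for each row (Python 3.11.15, pandas 2.3.3). The motif search was tested on simulated sequences and family assignment on a few example symbols. Directions were checked only on rows built with a known sign, so that outcome was fixed in advance. Genes were matched to RefSeq by Entrez ID; all 139 rows matched, and 137 overlap their gene. Members, 11 role lists, 9 marker lists and motifs were chosen with earlier results of these data known. Values are printed for the 3 lowest members of each family, every higher member and every member on a role list. Alternatives were a fold of 3, brightness filters, other symbols or classes, re-centring and, added after seeing the data, rows at their gene. Protein sequences were not analysed here.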

Additional observations from a re-analysis of the deposited data

How the results depend on the processing

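Lower rows outnumbered higher rows among the members under every alternative that was run. Over all alternatives 103 of 129 values stayed close to the reported one. Close meant counts within 1.5 times and medians within 0.1, and the lower share was held to a narrower margin. Every value stayed close with a log2 average of at least 6, any symbol of a row, current RefSeq symbols, distinct symbols or equal rows counted once. So did every value with rows at their RefSeq gene, chosen after seeing the data. The level of 6 and equal rows counted once kept all 127 lower and 12 higher members, so they could move no value. Distinct symbols and rows at their gene each kept 126 lower members, so they could move little. A fold of 3 left 34 lower and 2 higher members, with medians of -1.70 and 2.04, and 14 *Ccdc*, 5 *Lrrc*, 8 *Wdr*, 1 *Ttc*, 2 *Iqc* and 1 *Ankrd* rows lower. The class Coding alone left 51 lower and 4 higher members, a median of 1.51 for the higher ones, 19 lower past a fold of 3, and 28 *Ccdc*, 7 *Lrrc*, 3 *Wdr*, 3 *Ttc*, 5 *Iqc* and 2 *Ankrd* rows lower. A log2 average of at least 8 left 7 higher members. Re-centring on the median of all coding rows, -1.12, gave 25 higher members, a lower share of 79.9%, medians of -0.34 and 0.11, and 0 lower members past a fold of 3. After it 2035 of all 4102 coding rows were lower. The rows had been selected for their fold, so the median of -1.12 is not that of the whole array.

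No paired analysis was possible because the deposited table holds group averages and no single mice. Leave-one-out fits and the replicate block were therefore not run, and the depth of the measurement, the signal over background of each array, is unknown.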

Other observations

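Further rows carry a family name that the first symbol does not show. Through their Entrez ID 10 coding rows have a current RefSeq symbol in the families, and all 10 were lower, from -1.88 to -1.29 with a median of -1.42. Listed under RIKEN or provisional names, they were *Ttc6* (9.90 in wild-type and 8.02 in *Ctcf*-cKO, -1.88), *Iqcm* (9.60 and 7.73, -1.87), *Ttc41* (-1.56), *Ccdc192* (-1.46), *Ccdc180* (-1.44), *Ccdc189* (-1.40), *Iqcn* (-1.39), *Ccdc187* (-1.36), *Ccdc7b* (-1.34) and *Iqca1l* (-1.29). A row named first for *Gprasp1* also lists *Armcx5* and was higher, at 7.28 and 8.68 (1.40), in the direction of the 3 *Armcx* rows. Of the rows outside the coding classes 4 begin with a family symbol. They were 3 rows of *Ccdc169*, at -1.49, -1.48 and -1.09, and *Ccdc34os*, the opposite strand RNA of *Ccdc34*, at 7.93 and 6.71 (-1.22), all lower.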
